A study of Mus musculus and Rattus norvegicus with 2 samples.

Results

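The miRNAs miR-10a and miR-10b were followed in small RNA from caput epididymal sperm, with 1 rat and 1 mouse library. The rat library came from Sprague Dawley rats described as young adults of 450 g, and the mouse library from C57BL/6 mice aged 2 months. Per the labels, the sperm were purified from the caput, the head of the epididymis, and RNA of 18 to 45 nt was sequenced. The labels do not say how the sperm were purified or how many animals gave each library. Members were the listed sequences whose matched entry named miR-10a or miR-10b in either arm. These were 305 of 650877 distinct sequences in rat and 410 of 914516 in mouse, or 106374 of 14652889 listed rat reads and 493654 of 11760708 listed mouse reads. All of them, 0 on the minus strand, could be placed on the mouse miR-10a or miR-10b hairpin. The species were compared without replicates, so no test was possible. Values in parentheses after a share, level, ratio or difference are 95% intervals, which cover counting error only.

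A miRNA is cut from a hairpin precursor, which leaves a 5p and a 3p strand, and usually one of them is kept and loaded into Argonaute. The seed, bases 2 to 8, leads target recognition, so a shift of the 5′ end by a single base gives a different seed, whereas changes at the 3′ end leave the seed as it is. Forms that differ in their ends are called isomiRs. miR-10a and miR-10b are ancient miRNAs encoded within the Hox gene clusters, and Hox mRNAs are among their known targets. Sperm in the epididymis make little or no new RNA, and they are known to gain small RNAs in transit, in part from vesicles shed by the epididymal epithelium.

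The mature sequences are shown because a single base tells the 5p arms apart and because both share their seed. They are from RefSeq for mouse, build GRCm38.p6, with the seed in capitals.
mmu-miR-10b-5p: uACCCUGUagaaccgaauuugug
mmu-miR-10a-5p: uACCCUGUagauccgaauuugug
mmu-miR-10b-3p: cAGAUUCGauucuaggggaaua
mmu-miR-10a-3p: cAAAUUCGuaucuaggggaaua
Counted from 1 at the 5′ end and written as DNA, miR-10a-5p differs from miR-10b-5p by T12A alone, and the 3p arms differ by A3G, T9A and A10T. The mouse Mir10b hairpin is at chr2:74726070-74726137 (GRCm38, plus strand), in introns of both Hoxd3 and Hoxd4 in GENCODE vM21. Its 5p arm is chr2:74726074-74726096. The mouse Mir10a hairpin is at chr11:96317165-96317274, also on the plus strand, in no protein-coding gene and 993 bases before Hoxb4. Its 5p arm is chr11:96317186-96317208. Rat coordinates were not used here.

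The printed names separated miR-10a from miR-10b in mouse and failed to do so in rat. Of the 106311 rat reads under miR-10a-5p, 82162 (77.3%) had A at base 12 and were miR-10b by sequence, and 24138 (22.7%) were miR-10a. The deposited rat table itself printed a T-to-A mismatch at that base for all 82162. The 49 rat reads under miR-10b-5p all began at base 3 or later, and 35 of them were miR-10a by sequence. In mouse, 382154 of 382162 reads under miR-10b-5p and 111464 of 111485 under miR-10a-5p carried the base of their name. Reads with C or G at base 12 were left undecided, 11 in rat and 29 in mouse, which were 0.0103% and 0.00587% of the 5p reads under the names. All values below use the split by sequence.

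Names also hid the longer forms. Reads that ran past base 23 of the 5p arm stood under GenBank microRNA records of the hairpins, which added 15698 rat and 79974 mouse reads, or 12.9% of all miR-10 reads in rat and 13.9% in mouse. Reads under miR-10a-5p and miR-10b-5p ended at base 23 at the latest in both libraries, apart from rat reads under miR-10b-5p, which reached base 24. In rat, miR-10a-5p held 87.1% of all miR-10 reads, and the records for the miR-10b and miR-10a sequence held 9.32% and 3.54%. In mouse, miR-10b-5p held 66.6%, miR-10a-5p 19.4% and the corresponding records 9.88% and 4.06%. Levels are therefore given both under the names and with these records, and forms and ends with the records.

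**Figure D1:**
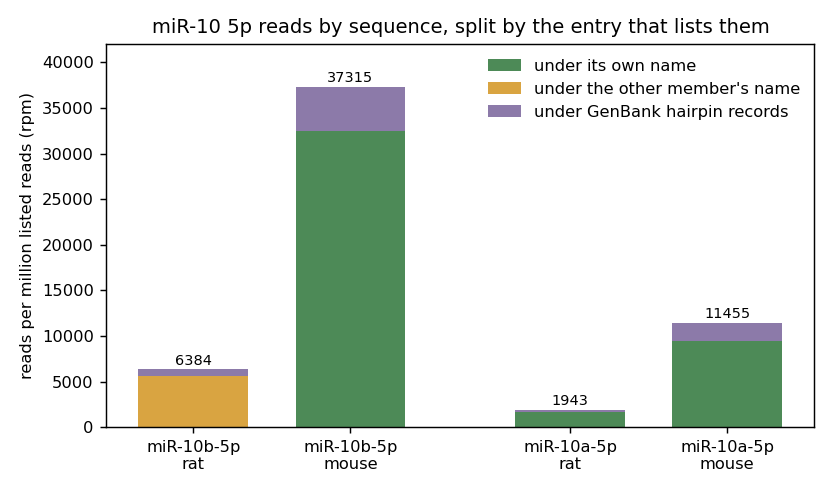
Level of each 5p arm by sequence, in reads per 1000000 listed reads (rpm), for the rat and the mouse library. The colours show the entry that listed the reads. Of rat miR-10b-5p reads, 87.8% stood under the name of miR-10a and 12.2% under a hairpin record, and both arms were lower in rat.

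Both 5p arms were lower in rat, by nearly the same factor. miR-10b-5p had 82176 reads in rat, which is 5608 reads per 1000000 listed reads (rpm; 5570 to 5647), and 382154 reads in mouse, which is 32494 rpm (32393 to 32596). Its level was 5.79-fold lower in rat, a log2 ratio of -2.53 (-2.55 to -2.52). miR-10a-5p had 24173 rat reads, or 1650 rpm (1629 to 1671), against 111464 mouse reads, or 9478 rpm (9422 to 9533). It was 5.75-fold lower in rat, a log2 ratio of -2.52 (-2.54 to -2.50). The intervals of both log2 ratios overlap each other and exclude 0. In these bulk samples, fewer cells of a type and less RNA per cell cannot be told apart. With the hairpin records, miR-10b-5p reached 6384 rpm in rat and 37315 in mouse, and miR-10a-5p 1943 and 11455. The ratios were then -2.55 (-2.56 to -2.54) and -2.56 (-2.58 to -2.54).

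The size of the difference rests on the denominator. miR-10 reads under the names made up 32.7% of reads under miRNA entries in rat and 69.3% in mouse, so that scaling to these entries makes the denominator move with miR-10. Scaled in this way, the ratio was -1.08 for miR-10b-5p and -1.07 for miR-10a-5p. Taken by printed name alone, miR-10b-5p stood at -13.25 and miR-10a-5p at -0.39, which follows from the rat names.

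miR-10b was the more abundant member in both libraries, in the same proportion. Under the names it made up 77.3% of the decided 5p reads in rat (77.0 to 77.5) and 77.4% in mouse (77.3 to 77.5), or 3.40 and 3.43 reads for each miR-10a read. The difference was -0.15 percentage points (-0.43 to 0.13) and was not detectable at this depth. With the hairpin records the shares were 76.7% and 76.5%, and the difference was 0.15 percentage points (-0.11 to 0.41).

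Other miRNAs were counted by core sequence (bases 2 to 20 of the mouse mature sequence in reads of up to 30 nt), for mouse miRNAs in the RefSeq table used, which does not list every miRNA. Among the 89 of these with at least 100 reads over both libraries, miR-10b-5p ranked first and miR-10a-5p second in each library. Of the 89, 18 (20.2%) were at least 2-fold lower in rat and 39 (43.8%) at least 2-fold higher. Their median log2 ratio was 0.77. Both miR-10 members were among the 18, with the 10th and 11th lowest ratios. Only exact matches to the mouse core were counted. A rat miRNA that differs there would thus count as lower in rat, and such cases were not checked. Beside miR-10a-5p, the ratios nearest to that of miR-10b-5p were those of let-7b-5p at -2.58 (-2.71 to -2.45), with 593 rat and 2852 mouse reads, and of miR-100-5p at -2.47 (-2.80 to -2.17), with 103 and 460. This likeness is over 2 libraries and is a description of them.

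**Figure D2:**
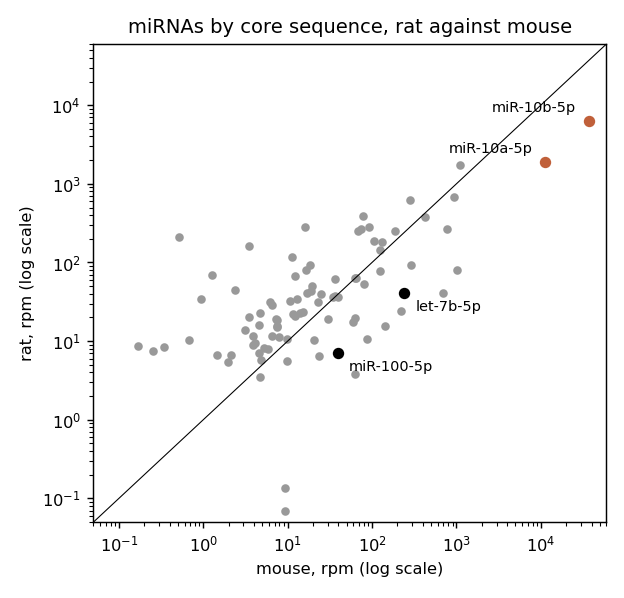
Level of 89 miRNAs by core sequence in mouse (x axis) and rat (y axis), in rpm on log scales, with the line of equal levels. Both miR-10 members lie below the line at the top of both axes, and let-7b-5p and miR-100-5p have the nearest ratios.

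The wider family is close in sequence to miR-10 but carries other seeds, and it did not move as a block. Of miR-99a-5p, miR-99b-5p, miR-100-5p, miR-125a-5p and miR-125b-5p, 2 of 5 were at least 2-fold lower in rat and 0 at least 2-fold higher, and their median ratio was -0.66. Among the 89 miRNAs, 20.2% were lower and 43.8% higher by that measure. The summed level of the 5 was 140 rpm in rat and 840 in mouse, a log2 ratio of -2.59 (-2.65 to -2.52). Of these sums, miR-99b-5p held 41.2 rpm in rat and 697 in mouse. miR-99b-5p was far lower, with 604 rat and 8194 mouse reads and a ratio of -4.08 (-4.20 to -3.96). miR-125a-5p stood at -0.12 (-0.30 to 0.06) and miR-125b-5p at 0.07 (-0.12 to 0.26), neither detectably different. miR-99a-5p stood at -0.66 (-0.89 to -0.43).

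Marker miRNAs of germ cells, to which sperm belong, and of other cells were counted by core sequence as far as that table lists them. Not counted were miR-34c-5p (germ cells), miR-150-5p (leukocytes), miR-143-3p and miR-145a-5p, which are all the smooth muscle markers chosen, and miR-1a-3p and miR-133a-3p (striated muscle). The germ cell miRNAs miR-34b-5p and miR-449a-5p summed to 278 rpm in rat and 1.79 in mouse. The 3p strands of miR-34b and miR-34c were not on the list, and both were higher in rat, to unlike degrees. For miR-34c-3p the log2 ratio was only 1.05, from 226 rat reads against 87 mouse reads. For miR-34b-3p it was 5.52, from 2379 rat reads against 41 mouse reads. The 5 epithelial miRNAs of the miR-200 family had a summed level of 357 rpm in rat and 228 in mouse (log2 ratio 0.65, 0.58 to 0.72), with 2 of 5 at least 2-fold higher and 1 of 5 lower, close to the 43.8% and 20.2% among the 89 miRNAs. Of the erythrocyte pair, miR-451a had 34.0 rpm in rat and 0.935 in mouse, and miR-144-3p had 6 rat reads and 0 mouse reads. Leukocyte miRNAs (miR-142a-3p, miR-223-3p and miR-155-5p) summed to 2.46 rpm in rat and 0.425 in mouse, with miR-155-5p at 0 in mouse. The other arm of the first, miR-142a-5p, was not on the list and had 8.33 rpm in rat and 0.340 in mouse. The endothelial miR-126a-3p had 3.75 and 2.30 rpm. miR-206-3p of striated muscle had 0 reads in both. The part of such cells in the miR-10 difference was not tested. In addition, 1 snoRNA sequence held 31.5% of listed mouse reads, and 1 tRNA fragment held 21.1% of listed rat reads. With the leading sequence of each library left out, the ratios were -2.74 for miR-10b-5p and -2.73 for miR-10a-5p.

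The strands opposite were barely present. Under the names, 14 rat and 7 mouse reads came from the 3p arms, and with the records 27 and 8. With the records, the 3p arms took 0.0221% of rat miR-10 reads (0.0146 to 0.0322) and 0.00139% of mouse miR-10 reads (0.000602 to 0.00275), a log2 ratio of 3.99 (2.81 to 5.34). Under the names the ratio was 3.21 (1.81 to 4.76), and counted as distinct sequences it was 0.43 (-1.31 to 2.17), which includes 0. miR-10a-3p had 17 rat reads against 4 in mouse, and miR-10b-3p had 10 against 4. As levels, miR-10b-3p had a ratio of 1.005 (-0.79 to 3.13) and miR-10a-3p one of 1.77 (0.15 to 3.801). Under the names alone, miR-10a-3p stood at 1.005 (-0.79 to 3.13), and miR-10b-3p, with 4 rat and 3 mouse reads, at 0.098 (-2.47 to 2.87), an interval that reaches nearly to the 5p ratio. The leading rat 3p form was the 21-nt miR-10a-3p sequence below, with its own seed in capitals, which had 7 reads in rat and 1 in mouse.
miR-10a-3p, bases 1 to 21: cAAATTCGtatctaggggaat

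The leading forms of miR-10b-5p are shown as listed, as DNA with the seed of each form in capitals, because the ratio between the libraries differed with the 3′ end.
Bases 1 to 22: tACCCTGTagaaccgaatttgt
Bases 2 to 24: aCCCTGTAgaaccgaatttgtgt
Bases 1 to 24: tACCCTGTagaaccgaatttgtgt
Bases 2 to 22: aCCCTGTAgaaccgaatttgt
Bases 1 to 23: tACCCTGTagaaccgaatttgtg
Bases 1 to 21: tACCCTGTagaaccgaatttg
The 22-nt form led both libraries, with 64840 rat reads (69.3% of miR-10b-5p, 69.0 to 69.6) and 342622 mouse reads (78.1%, 78.0 to 78.2). It was therefore 1 base shorter than the RefSeq mature sequence. The full mature sequence, bases 1 to 23, was second in rat with 5532 reads (5.91%) and ranked 5 in mouse with 7468 (1.70%).

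Among these 6 forms, which all match the hairpin, those ending at bases 21 and 23 differed least between the libraries and those ending at base 24 differed most. The form of bases 1 to 21 had 2947 rat and 3036 mouse reads, a log2 ratio of -0.36 (-0.43 to -0.29). That of bases 1 to 23 stood at -0.75 (-0.80 to -0.70). The 22-nt form stood at -2.72 (-2.73 to -2.71) and that of bases 2 to 22, with 3333 rat and 16374 mouse reads, at -2.61 (-2.67 to -2.56). The form of bases 1 to 24 had 2162 rat and 17329 mouse reads, a ratio of -3.32 (-3.39 to -3.26), and that of bases 2 to 24 had 4482 and 28797, a ratio of -3.001 (-3.05 to -2.96). The 6 forms spanned 7.78-fold in their ratios, although each was lower in rat. Over all miR-10b-5p reads, those with untemplated ends included, base 24 did not stand apart in this way: it ended 10824 rat reads (11.6%) and 55521 mouse reads (12.7%), and base 22 ended 69234 (74.0%) and 362753 (82.7%).

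Among the leading forms of miR-10a-5p, those ending at base 23 differed least and matching forms ending at base 24 differed most. The matching form of bases 1 to 21 was not among the leading forms. It had 1264 rat and 1193 mouse reads and so differed less than those ending at base 23. Its 22-nt form had 15232 rat reads (53.5% of miR-10a-5p, 52.9 to 54.1) and 90855 mouse reads (67.4%, 67.2 to 67.7), a ratio of -2.89 (-2.92 to -2.87). The forms of bases 1 to 23 and 2 to 23 stood at -0.89 (-0.96 to -0.81) and -1.04 (-1.11 to -0.96). Those of bases 1 to 24 and 2 to 24 stood at -3.71 (-3.83 to -3.60) and -3.69 (-3.80 to -3.57). A form of bases 2 to 23 with a final A in place of the T of the hairpin is shown beside the matching form, because it was the more frequent of the pair in rat and the less frequent in mouse.
Matching, bases 2 to 24: aCCCTGTAgatccgaatttgtgt
With a final A: aCCCTGTAgatccgaatttgtga
The form with A had 1327 rat and 5123 mouse reads, and the matching form had 683 rat and 7066 mouse reads. Its ratio was -2.27 (-2.35 to -2.18).

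**Figure D3:**
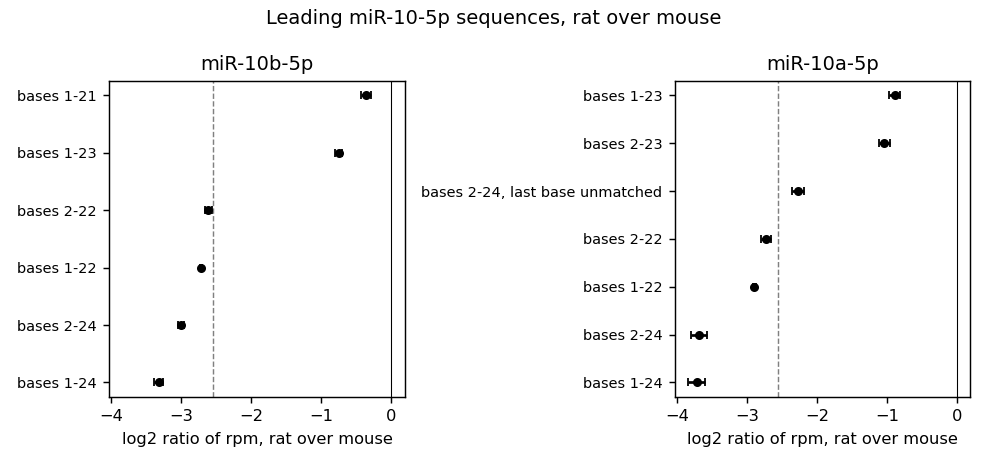
Log2 ratio of rpm, rat over mouse, of the leading 5p forms by first and last base, with exact 95% intervals, and of the whole arm (dashed line). In both members, forms ending at base 24 with the matching base lie lowest and those ending at base 23 lie near the top.

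Most reads began at base 1, and a minority began at base 2, which moves the seed from ACCCUGU to CCCUGUA. The first seed was carried by 83.4% of rat (83.2 to 83.6) and 85.7% of mouse 5p reads (85.6 to 85.8), and the shifted seed by 16.1% of rat (15.9 to 16.3) and 13.9% of mouse reads (13.8 to 14.02). miR-10a shifted more than miR-10b in each library. Of miR-10a-5p reads, 23.7% began at base 2 in rat (23.2 to 24.2) and 19.4% in mouse (19.1 to 19.6). Of miR-10b-5p reads, the shares were 13.8% in rat (13.6 to 14.02) and 12.3% in mouse (12.2 to 12.4). Under the names alone, the share of 5p reads that began at base 1 was lower in rat by 3.21 percentage points (-3.41 to -3.02 as a signed difference), and with the records by 2.22. Counted as distinct sequences, the difference was -1.81 percentage points (-8.90 to 5.20), which includes 0. Reads that began 1 base before the mature start were 0.762% of rat and 0.647% of mouse miR-10a-5p reads, against 0.0118% and 0.00615% for miR-10b-5p.

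The 3′ end moved with the 5′ start. Of miR-10b-5p reads that began at base 1, 81.7% ended at base 22 in rat (81.4 to 81.9) and 89.9% in mouse (89.9 to 90.0), and 5.41% and 5.86% ended at base 24. Of those that began at base 2, 26.2% ended at base 22 in rat (25.4 to 26.95) and 30.7% in mouse (30.3 to 31.1), and 50.03% and 61.1% ended at base 24. For miR-10a-5p reads that began at base 1, 72.3% in rat and 85.3% in mouse ended at base 22. For those that began at base 2, 34.1% in rat and 47.4% in mouse ended at base 24. Ends at base 23 were more frequent in rat throughout: they were 20.8% of rat and 6.69% of mouse miR-10b-5p reads that began at base 2, and 34.9% and 15.1% for miR-10a-5p. With the records, miR-10b-5p reads from base 2 were on average no shorter than those from base 1. They measured 22.2 ± 0.964 nt in rat and 22.3 ± 1.04 nt in mouse, and those from base 1 measured 22.1 ± 0.689 nt in rat and 22.1 ± 0.621 nt in mouse (SD over reads). Under the names alone, where reads stop at base 23, reads from base 2 were shorter, at 21.4 ± 0.651 nt in rat and 21.2 ± 0.424 nt in mouse. miR-10a-5p reads from base 2 were shorter than those from base 1 with the records too. The mean length of miR-10b-5p reads under the names differed by -0.0033 nt between rat and mouse (-0.0068 to 0.00013). With the records the difference was -0.0105 nt (-0.0156 to -0.0053), which excludes 0.

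**Figure D4:**
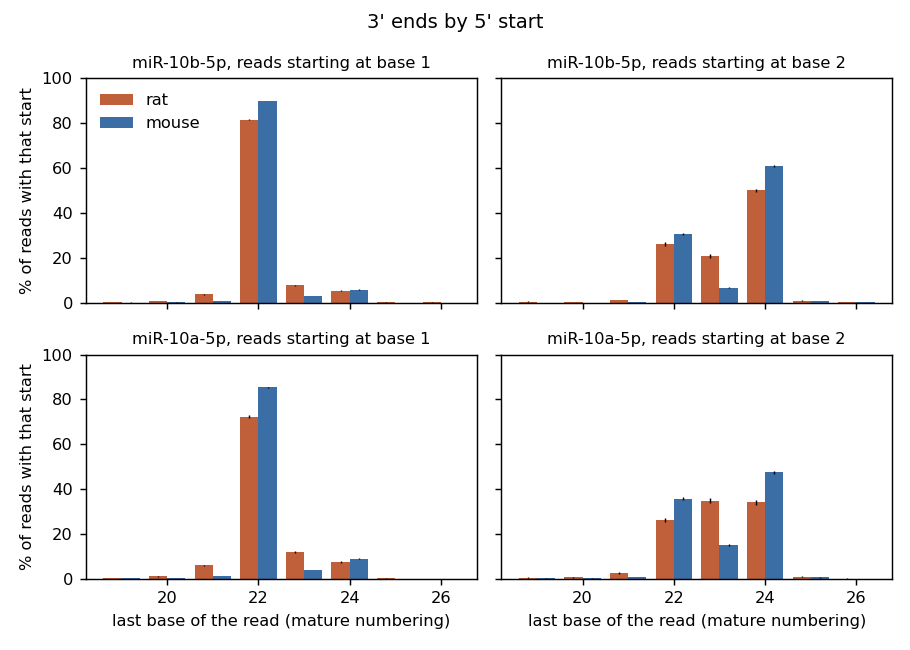
Share of 5p reads ending at each base, for reads starting at base 1 (left) and base 2 (right), in rat and mouse, with exact 95% intervals. Reads starting at base 1 end mostly at base 22, and those starting at base 2 end at bases 22 to 24.

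Untemplated 3′ bases are those that do not match the hairpin, and terminal nucleotidyl transferases are known to add such bases to miRNAs. They were read here against the mouse hairpins, and for 100% of reads called so under the records the deposited tables also printed a mismatch there, in rat against the rat record. Under the names, 1.64% of rat (1.56 to 1.72) and 1.49% of mouse miR-10-5p reads (1.46 to 1.53) ended in such bases. The difference of 0.147 percentage points (0.065 to 0.232) turned to -9.39 (-15.6 to -2.90) among distinct sequences. Each of the 82162 rat miR-10b reads under miR-10a-5p already carried 1 mismatch, at base 12, of the 2 allowed. Under the names, such reads could thus hold only 1 more mismatch, where mouse reads could hold 2. With the records, which hold the reads past base 23, the shares were 7.21% in rat (7.07 to 7.36) and 4.48% in mouse (4.42 to 4.53). With the records, miR-10a-5p carried more of them, with 10.8% in rat and 7.204% in mouse, than miR-10b-5p with 6.12% and 3.64%. Under the names alone it carried fewer, with 1.57% in rat (1.42 to 1.73) and 1.20% in mouse. There, miR-10b-5p had 1.66% (1.57 to 1.75) and 1.58%, and the rat intervals overlap. With the records, a single A was the most frequent untemplated end, at 71.6% of such reads in rat and 75.8% in mouse. The origin of these bases was not tested.

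In number of reads, the untemplated bases concentrated at base 24. As a share of the reads ending at a base, this did not hold for miR-10b-5p. Its matching G at base 23 ended 91.8% of rat and 72.7% of mouse reads that stopped there. At base 25 the matching G ended only 9.57% of 188 rat and 5.15% of 680 mouse reads. The hairpins of both members have T at base 24. Of miR-10a-5p reads that ended at base 24, 55.2% had A in rat (53.6 to 56.8) and 36.1% in mouse (35.5 to 36.7), and 34.3% and 63.6% had the matching T. Of miR-10b-5p reads ending there, 28.4% had A in rat (27.5 to 29.2) and 14.99% in mouse (14.7 to 15.3), and 62.1% and 84.8% had T. The start of the read had opposite relations to A in the members. For miR-10b-5p, A was more frequent in reads from base 1, with 39.5% in rat and 19.6% in mouse, than in reads from base 2, with 20.8% and 11.8%. For miR-10a-5p, it was less frequent in reads from base 1, with 50.6% in rat and 28.5% in mouse, than in reads from base 2, with 58.8% and 42.1%.

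**Figure D5:**
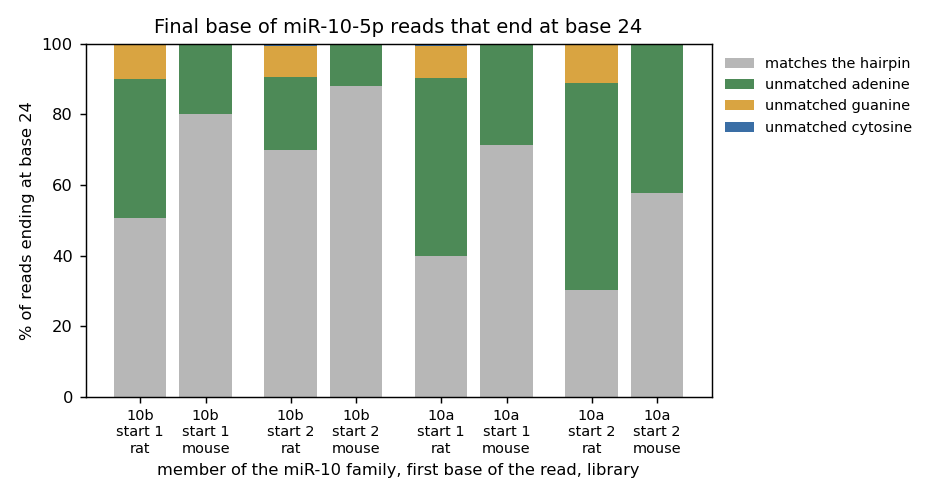
Final base of 5p reads ending at base 24, in percent, by member, first base of the read and library. Unmatched adenine and guanine take a larger share in rat than in mouse in each of the 4 pairs.

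G at base 24 was far more frequent in rat. It ended 9.10% of rat (8.57 to 9.66) and 0.114% of mouse miR-10b-5p reads (0.0876 to 0.146) that reached exactly base 24, and 10.1% (9.13 to 11.04) and 0.141% (0.0960 to 0.2005) for miR-10a-5p. Other miRNAs differed in the same direction, a count added after the data were seen. Among reads of 20 to 27 nt that began at the mature start and matched the hairpin up to the last base, a single unmatched G ended 0.595% of rat and 0.0228% of mouse miR-10b-5p reads. The shares were 0.726% and 0.0207% for miR-10a-5p. In the 13 other miRNAs with at least 500 such reads in each library, the median was 0.530% in rat and 0.0400% in mouse. The share was higher in rat in 13 of 13. Rat reads of these 13 were compared with mouse hairpins only. A base at which the rat hairpin differs would thus count as unmatched in rat, and this was not checked. A single unmatched A ended 4.93% of rat and 3.25% of mouse miR-10a-5p reads by this count, and 1 of the 13 others exceeded it in each library. For miR-10b-5p the shares were 3.11% in rat and 1.74% in mouse, and 5 of the 13 others exceeded it in each. At base 23, by contrast, an unmatched T was more frequent in mouse, with 2.45% of rat (2.13 to 2.79) and 19.2% of mouse miR-10b-5p reads (18.5 to 19.8) that ended there.

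Longer reads into the loop were rare, and their ends differed. The 27-nt miR-10b-5p read below had 191 rat and 26 mouse reads, and it was picked after its values were seen.
Bases 1 to 27: tACCCTGTagaaccgaatttgtgtggt
Matching reads ending at base 26 or 27 were 0.3004% of rat (0.266 to 0.338) and 0.0146% of mouse miR-10b-5p reads (0.0112 to 0.0186). Reads past base 28 were 0.0182% of rat (0.0106 to 0.0291) and 0.0558% of mouse miR-10b-5p reads (0.0491 to 0.0633), with 17 and 245 reads. For miR-10a-5p, the shares past base 28 were 0.0527% in rat (0.0295 to 0.0869) and 0.0423% in mouse (0.0320 to 0.0548), not detectably different at this depth.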

How the data were processed

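The authors deposited 1 table per library with whole read counts per distinct sequence, not normalised, each matched to a single entry of miRBase, Rfam or GenBank with at most 2 mismatches, per the file headers. Bowtie 0.12.7 and the builds mm9 and rn5 are named in the submitters' processing notes, with no role. The labels state no trimming or read filters. The libraries held 14652889 rat and 11760708 mouse listed reads.

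Reads under miR-10 names, and reads of other entries sharing a 12-nt word with a mouse RefSeq miR-10 hairpin, were placed on the hairpins without gaps, with at most 2 internal mismatches. Bases from the first mismatch at or past base 19 on, at most 4, counted as untemplated. Base 12 decided the 5p member. The other miRNAs were counted by core sequence with a pseudocount of 0.5 read. Levels are reads per 1000000 listed reads (rpm). Shares have Clopper-Pearson and ratios conditional binomial intervals, and differences of shares have Newcombe intervals. A normal interval over reads was used for mean length. PCR reads carry no molecular identifiers, so intervals cover counting error only. Placement was tested on simulated reads. Python 3.11.15, SciPy 1.17.1 and pandas 2.3.3 were used.

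Named forms were the 5 most abundant sequences of each 5p arm and the 3 of each 3p arm per library, substitutions at 0.5% or more, entries with at least 0.1% of miR-10 reads and the 3 nearest ratios. Of the 3p forms, only the leading one is printed. The members and lists were chosen with earlier results of these data known, and the counts over other miRNAs' last bases were added after the data were seen. Alternatives were other denominators, printed names, exact matches, distinct sequences, a minimum of 10 reads and the hairpin records.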

Additional observations from a re-analysis of the deposited data

How the results depend on the processing

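Of 29 alternatives over 7 results, 26 kept the direction. This count is no measure of robustness. For the 3p share, the printed-name alternative uses the same reads as the main value and could not differ from it. For the miR-10b share and the mean length, the interval of the main value includes 0, so the direction itself is unsure. No paired analysis was possible because each species has 1 library. For miR-10b-5p and miR-10a-5p, the log2 ratio was -1.08 and -1.07 scaled to miRNA entries, -2.77 and -2.75 scaled to miRNA entries other than miR-10, -2.74 and -2.73 without the leading sequence of each library, -13.25 and -0.39 by printed name, and -2.55 and -2.56 with the hairpin records, an alternative chosen after seeing the data. The miR-10b share differed by -77.4 percentage points by printed name, and it turned to 1.87 among distinct sequences and to 0.153 with the records, and the interval includes 0 in both of these. Among distinct sequences, the 3p ratio was 0.43 with an interval that includes 0, the start at base 1 differed by -1.81 points, the mean length by -0.180 nt, and untemplated ends turned to -9.39 points. The cause of these shifts was not tested. With the records, the start at base 1 differed by -2.22 points, the mean length by -0.0105 nt and untemplated ends by 2.73 points. The 3p arms are limited by their few reads, and a count of 0 allows up to 3 reads, which is 0.205 rpm in rat and 0.255 in mouse. With a single library per species, species, animal and library cannot be told apart.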

Other observations

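The sets of miR-10 5p forms overlapped closely by reads and less so by sequence. Of 311 rat and 442 mouse distinct miR-10b-5p sequences, 215 occurred in both libraries, 69.1% of the rat and 48.6% of the mouse set, and they held 99.9% of rat and 99.8% of mouse reads. Single reads made up 159 of the 311 rat and 160 of the 442 mouse sequences. The overlap was not computed for other miRNAs. Of 217 rat and 340 mouse miR-10a-5p sequences, 149 were shared. Rat reads were spread over more forms, with 7 forms in rat and 4 in mouse making up 90% of miR-10b-5p reads, and 8 and 6 for miR-10a-5p.

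Substitutions inside the 5p arms were few, and 0 of them reached 0.5% of an arm in either library. Reads with an internal mismatch were 0.641% of rat and 0.534% of mouse miR-10b-5p reads, and 0.737% and 0.595% of miR-10a-5p reads. A17G was the most frequent in both members and libraries, level with A2G at 16 reads each in rat miR-10a-5p. For miR-10b-5p it had 0.0866% of rat (0.0688 to 0.108) and 0.0738% of mouse miR-10b-5p reads (0.0660 to 0.0823).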
